A study of Mus musculus with 44 samples.

Results

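The comparison described here set light against standard fixation of chromatin: 4 Capture-C libraries, 2 from cells fixed with 0.5% formaldehyde and 2 from cells fixed with 2% formaldehyde, out of 44 samples in the series and 14 that varied fixation. They were chosen by the fixation label alone, and the 2 libraries fixed with 1% formaldehyde are given only as the intermediate step. All of these libraries came from Ter-119+ erythroid cells, selected with magnetic beads from spleen of C57BL/6 females that had been made anemic with phenylhydrazine. The sources used here give no altered genotype, no age and no number of mice. Ter-119 marks late erythroid cells, and since Capture-C measures ligation and not expression, the cell type could not be checked against its marker genes. Aliquots of cells were fixed for the same time at room temperature, and the replicates are technical duplicates per the study's own description, so every p-value below measures the spread between duplicate libraries and not between mice. The question was whether the distance decay of interactions, and the contact of enhancer-bearing against other nearby chromatin, differ between the 2 fixation strengths.

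Formaldehyde links proteins to DNA and to each other, so that pieces of chromatin that lie close together in the nucleus stay together when the DNA is cut. In Capture-C the fixed chromatin is cut with the restriction enzyme DpnII, the cut ends that lie close are ligated, and ligation products that contain a chosen promoter, the viewpoint, are pulled out with oligonucleotides and sequenced. Ligations with DNA of the viewpoint's own chromosome (in cis) fall off with distance, while ligations with other chromosomes (in trans) include random joining of DNA that was no longer held in place. The α-globin and β-globin genes encode the subunits of adult hemoglobin and are controlled in erythroid cells by distal enhancers, which at β-globin form the locus control region. Slc25a37 encodes Mitoferrin-1, which imports iron into mitochondria for heme synthesis.

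The viewpoints are shown by the bases just upstream of their genes, because the captured fragments are defined by DpnII sites around these promoters. The sequences are those of RefSeq on build GRCm38.p6, 250 bases before each transcription start, 5′ to 3′ on the gene's strand, with the DpnII site GATC in capitals. That build differs from mm9, the build of the interaction files per the labels, so these positions are not set against the positions of the data. Of the 5 viewpoint genes, 4 had an entry, with the genes that the study names Hbb-b1 and Hbb-b2 listed as Hbb-bs and Hbb-bt. The entry of Hba-a1 covers chr11:32283422-32283671 on the plus strand, that of Hba-a2 chr11:32296242-32296491 on the plus strand, that of Hbb-bs chr7:103827929-103828178 on the minus strand and that of Hbb-bt chr7:103813924-103814173 on the minus strand.
Hba-a1: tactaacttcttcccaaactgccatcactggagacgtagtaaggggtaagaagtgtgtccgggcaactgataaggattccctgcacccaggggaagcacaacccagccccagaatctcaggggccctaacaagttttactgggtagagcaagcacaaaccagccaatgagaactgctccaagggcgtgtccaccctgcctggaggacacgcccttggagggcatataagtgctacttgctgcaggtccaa
Hba-a2: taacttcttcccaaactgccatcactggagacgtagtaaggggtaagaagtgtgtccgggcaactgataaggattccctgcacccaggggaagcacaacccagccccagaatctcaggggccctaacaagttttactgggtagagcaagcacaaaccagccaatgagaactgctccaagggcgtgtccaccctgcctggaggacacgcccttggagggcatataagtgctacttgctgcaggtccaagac
Hbb-bs: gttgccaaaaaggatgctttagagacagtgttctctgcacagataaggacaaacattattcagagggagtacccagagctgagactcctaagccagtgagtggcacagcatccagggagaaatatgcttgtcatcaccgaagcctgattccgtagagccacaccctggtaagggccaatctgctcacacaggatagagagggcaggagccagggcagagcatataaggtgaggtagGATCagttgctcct
Hbb-bt: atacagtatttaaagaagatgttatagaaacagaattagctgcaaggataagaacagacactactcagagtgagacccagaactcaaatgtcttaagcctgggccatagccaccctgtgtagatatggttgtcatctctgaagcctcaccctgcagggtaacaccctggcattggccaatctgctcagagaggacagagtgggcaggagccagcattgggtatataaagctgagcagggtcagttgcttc
The α-globin sequences were identical over all 247 bases that overlap after a shift of 3 bases, and the β-globin pair matched at 127 of 249 bases without gaps. Interactions of both genes of a pair were deposited as 1 combined table. A DpnII site (GATC, which reads the same on both strands) stood in 1 of the 4 sequences, Hbb-bs, against 41.9% of all 32851 promoters of this length in the table.

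In the interaction files the captured stretch of each viewpoint has no listed fragment. These stretches lie on mm9 in chr11:32182317-32184781 and chr11:32194990-32197598 at α-globin, at chr7:110961283-110963273 and chr7:110975292-110977138 at β-globin and at chr14:69902161-69904393 at Slc25a37. Distances below run from the middle of a DpnII fragment to the middle of the nearer stretch, and sides are named by genome coordinate. Fragments were not assigned to exons or introns, since an mm9 annotation was not used here. Over the 6 libraries at 0.5%, 1% and 2% formaldehyde, the number of unique interactions per library was 94562 to 168633 at α-globin, 94418 to 155233 at β-globin and 34836 to 61802 at Slc25a37.

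The 1% libraries stood apart from each other. Over the 1119 listed fragments within 250 kb of the α-globin viewpoint, the interaction profiles of the 1% duplicates correlated at r = 0.900, whereas 1% replicate 1 correlated at 0.976 with 0.5% replicate 1 and 1% replicate 2 at 0.985 with 2% replicate 1. The duplicates at 0.5% and at 2% each correlated at 0.969. At β-globin the 1% duplicates had r = 0.882 and at Slc25a37 0.913, again with replicate 1 closer to the 0.5% libraries and replicate 2 closer to the 2% libraries. These r values run across fragments, which are not independent replicates, and share a viewpoint. Fits that include the 1% libraries are therefore given with and without them where the call differs.

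Cis interactions made up the minority of interactions after light fixation and the majority after standard fixation at all 3 viewpoints. From the α-globin promoters, 32.1% and 26.0% of interactions were in cis in the 0.5% libraries and 63.0% and 69.3% in the 2% libraries. The 2% libraries thus lay 37.1 percentage points higher on average (means 29.1% ± 4.34 and 66.1% ± 4.46, SD, n = 2 each). From β-globin the cis shares were 31.3% and 23.5% at 0.5% and 61.2% and 65.7% at 2%, and from Slc25a37 31.9% and 26.8% at 0.5% and 62.1% and 66.4% at 2%. No 0.5% library overlapped a 2% library at any viewpoint. The exact two-sided permutation test gave p = 0.33 for each viewpoint, which is the smallest p that 2 against 2 libraries allow. In the 1% libraries the cis share was 39.3% and 58.4% at α-globin, 37.3% and 55.0% at β-globin and 39.0% and 57.3% at Slc25a37, so that the duplicates differed by nearly as much as the neighbouring concentrations. Unfixed cells gave between 4.36% and 6.25% in cis. Per the study they were also handled differently, by Dounce homogenization in water without the centrifugation that followed for fixed cells.

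**Figure D1:**
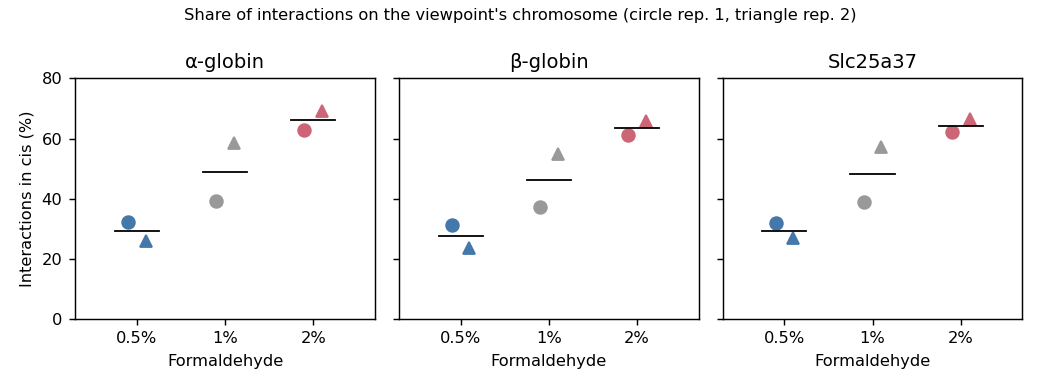
Percent of unique interactions in cis (vertical axis) for each library at 0.5%, 1% and 2% formaldehyde (horizontal axis) and each viewpoint; circles are replicate 1, triangles replicate 2 and black lines means of 2. At α-globin the 0.5% libraries sit at 32.1% and 26.0% and the 2% libraries at 63.0% and 69.3%, with the 1% duplicates far apart between them.

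The share of interactions that lay within 250 kb of the viewpoint was higher as well. At α-globin this local share of all interactions was 12.8% and 9.59% at 0.5% and 35.3% and 41.6% at 2%, at β-globin 10.6% and 7.52% against 31.0% and 35.8%, and at Slc25a37 12.4% and 10.2% against 34.4% and 40.4%. The ratio of the 2% mean to the 0.5% mean was 3.43, 3.70 and 3.31, respectively. Values below that are relative to all cis or all local interactions are scaled to those totals. This does not take out random joining within the chromosome itself. At the density of trans interactions, such joining would make up 10.2% and 13.8% of α-globin cis interactions at 0.5%. At 2% it would make up 2.84% and 2.15%. In the same order it would make up 13.5%, 19.9%, 3.88% and 3.21% at β-globin, and 10.6%, 13.6%, 3.04% and 2.52% at Slc25a37. Shares of cis interactions below were not corrected for it.

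The fitted slope of cis interactions on distance was steeper in both libraries of standard fixation than in both of light fixation. The decay exponent is the slope of log2 interaction density on log2 distance over 10 bins from 10 kb to 1 Mb, and a more negative value is a steeper fall. At α-globin it was -1.15 and -1.11 at 0.5% and -1.40 and -1.44 at 2%. At β-globin it was -1.18 and -1.18 at 0.5% and -1.43 and -1.45 at 2%, and at Slc25a37 -1.26 and -1.27 at 0.5% and -1.49 and -1.56 at 2%. The difference of the means was -0.29 at α-globin, -0.26 at β-globin and -0.26 at Slc25a37, several times the SD of either pair of duplicates (at most 0.052), and the groups did not overlap (exact permutation p = 0.33 in each case). In the 1% libraries the exponent was -1.16 and -1.33 at α-globin, -1.21 and -1.40 at β-globin and -1.31 and -1.44 at Slc25a37.

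The difference in slope was not seen over the whole range. Between 100 kb and 1 Mb alone, the mean exponent differed by -0.01 at each viewpoint and the groups overlapped (exact permutation p = 1 in each case): at α-globin it was -0.98 ± 0.07 at 0.5% and -0.99 ± 0.05 at 2% (SD, n = 2). Between 10 and 100 kb it differed by -0.30 at α-globin, -0.06 at β-globin and -0.30 at Slc25a37 without overlap. At β-globin the slope within either part thus differed far less than that of the full fit, at -0.26. The steeper full fit there is therefore mostly not a steeper slope within either part. Fitted on each side alone from 10 kb to 1 Mb, the α-globin exponent differed by -0.35 on the lower- and -0.15 on the higher-coordinate side. In the same order it differed by -0.27 and -0.24 at β-globin and by -0.19 and -0.33 at Slc25a37, without overlap. Interactions from 10 to 100 kb made up 19.7% ± 2.39 of all cis interactions of α-globin at 0.5% and 33.2% ± 0.403 at 2%. This share was 16.7% ± 1.34 and 31.8% ± 1.44 at β-globin, and 22.7% ± 1.70 and 36.5% ± 1.12 at Slc25a37 (SD, n = 2), without overlap (exact permutation p = 0.33 each).

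Among the distance bins from 2 kb to the chromosome end, the ratio of 2% to 0.5% was largest at 5 to 10 kb at α-globin and at 25 to 40 kb at β-globin and Slc25a37. At α-globin the 25 to 40 kb bin, which holds 3 of the 5 enhancer windows named below, held 5.27% ± 0.0223 of cis interactions at 0.5% and 10.8% ± 1.62 at 2%. The same bin went from 4.17% ± 0.131 to 9.74% ± 1.63 at β-globin and from 6.29% ± 0.281 to 12.8% ± 1.26 at Slc25a37. At the other end, the share of cis interactions more than 20 Mb away was 31.1% ± 1.66 at 0.5% and 18.4% ± 1.14 at 2% at α-globin, 30.3% ± 2.43 and 17.1% ± 0.405 at β-globin, and 19.4% ± 2.04 and 10.4% ± 0.434 at Slc25a37. The α-globin bin from 398 to 631 kb did not follow its neighbours: it held 3.92% ± 0.196 at 0.5% and 4.24% ± 0.270 at 2%, and the groups overlapped.

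**Figure D2:**
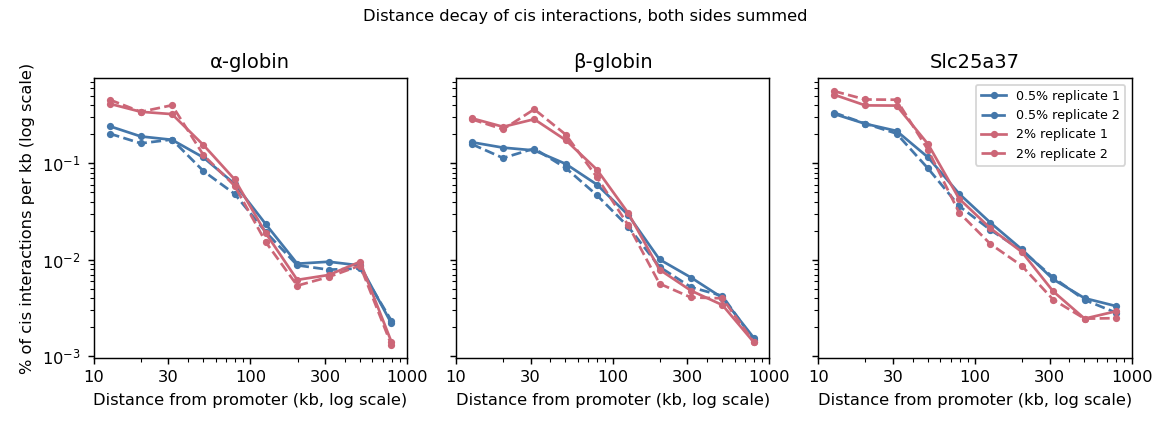
Percent of cis interactions per kb (vertical axis, log scale) against distance from the nearer promoter in kb (horizontal axis, log scale) for the 0.5% and 2% libraries. Solid lines are replicate 1 and dashed lines replicate 2; the 2% lines lie above the 0.5% lines up to 40 kb, cross them around 100 kb and mostly lie below them beyond, except in the α-globin bin from 398 to 631 kb.

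The enhancer-bearing side of the globin loci held more of the nearby interactions, relative to the opposite side, at 2% than at 0.5%. The α-globin enhancers lie on the lower-coordinate side, and the interval from 12 to 40 kb there was set against the same interval on the higher-coordinate side. In the 0.5% libraries the enhancer side held 3100 and 1924 interactions and the other side 1356 and 550, and in the 2% libraries the enhancer side held 16240 and 16732 and the other side 3860 and 2440. The log2 ratio of the sides was 1.19 and 1.81 at 0.5% and 2.07 and 2.78 at 2%, a difference of the means of 0.93 without overlap (exact permutation p = 0.33). Per 100000 interactions genome-wide, the enhancer side held 2401 and 2035 at 0.5% and 9630 and 13069 at 2%, while the other side held 1050 and 582 at 0.5% and 2289 and 1906 at 2%. Both sides thus had more interactions at 2% on this scale, and the enhancer side by the larger factor.

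At β-globin the interval from 35 to 65 kb on the higher-coordinate side, toward the locus control region, was set against the lower-coordinate side. The higher side held 1842 and 1029 interactions at 0.5% and 9274 and 8757 at 2%, and the lower side 629 and 265 at 0.5% and 1552 and 991 at 2%. The log2 ratio was 1.55 and 1.96 at 0.5% and 2.58 and 3.14 at 2%, a difference of 1.11 without overlap (exact permutation p = 0.33). Since this interval was set before the captured stretches had been located, 25 to 50 kb was tried as well, and it gave a difference of 1.14 at β-globin and 1.28 at α-globin. The places of the Slc25a37 enhancers were not given in the sources used here, so neither side is called the enhancer side: the higher- over the lower-coordinate side, 10 to 60 kb, had a log2 ratio of 0.06 and 0.53 at 0.5% and 0.75 and 1.37 at 2%, a difference of 0.77 (exact permutation p = 0.33). At 0.5%, replicate 1 of Slc25a37 was nearly symmetric, with 1652 against 1581 interactions. Without 2% replicate 2 the difference was 0.57 at α-globin and 0.45 at Slc25a37.

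Duplicates differed from each other in these ratios by more than counting error. The 95% Clopper-Pearson interval of the α-globin log2 ratio was 1.10 to 1.29 in 0.5% replicate 1 and 1.67 to 1.95 in replicate 2, and intervals of this kind cover counting error only. Replicate 2 had the higher ratio at 0.5%, 1% and 2% at every viewpoint. At 1% the ratio was 1.00 and 2.31 at α-globin, 1.63 and 2.60 at β-globin and 0.12 and 1.03 at Slc25a37. The unfixed libraries had too few interactions in these intervals to compare, with 35 and 51 on the α-globin enhancer side and 8 and 15 on the other.

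**Figure D3:**
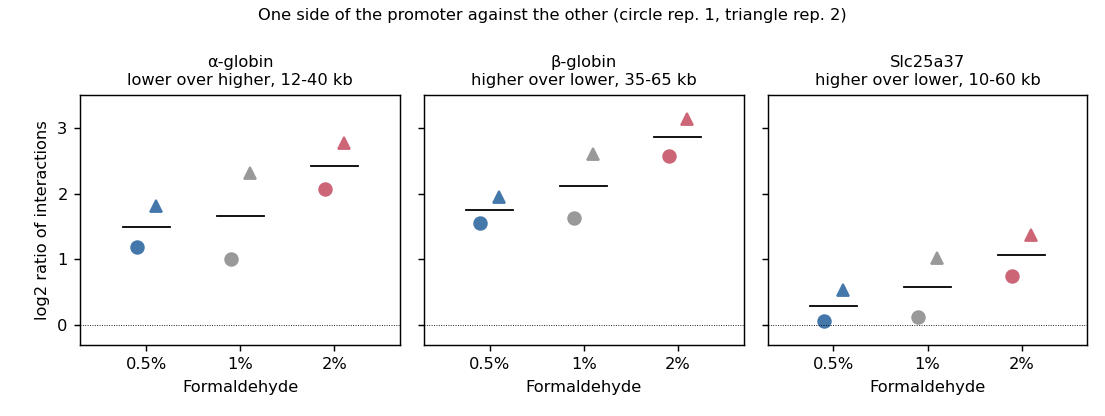
Log2 ratio of interactions on one side of the promoter over the same distances on the other (vertical axis) per library and formaldehyde concentration (horizontal axis); circles are replicate 1, triangles replicate 2 and black lines means of 2. The 2% libraries lie above the 0.5% libraries at each viewpoint, at α-globin at 2.07 and 2.78 against 1.19 and 1.81.

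Each of 5 windows around the α-globin enhancers took a larger share of the local interactions in both 2% libraries than in both 0.5% libraries. The windows reach 1.5 kb to either side of 38, 33, 28, 18 and 15 kb from the nearer promoter, which are approximate places. The 33 kb window, chr11:32148903-32151881 on mm9, held 2.44% and 2.88% of the interactions within 250 kb at 0.5%, 2.26% and 4.66% at 1%, and 4.35% and 5.98% at 2%. It had the largest ratio of means of the 5 windows, 1.94. The 15 kb window went from 2.71% and 3.02% at 0.5% to 3.70% and 4.65% at 2%, and the 18 kb window from 1.42% and 1.62% to 2.24% and 2.62%. The 28 kb window went from 2.13% and 2.21% to 2.91% and 3.26%, and the 38 kb window, with the smallest ratio of means at 1.24, from 2.09% and 2.09% to 2.41% and 2.78%. In none of the 5 windows did the 0.5% and 2% libraries overlap, and each gave exact permutation p = 0.33. Per kb and per 100000 interactions genome-wide the means at 2% were 4.29 times (38 kb) to 6.83 times (33 kb) those at 0.5%.

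**Figure D4:**
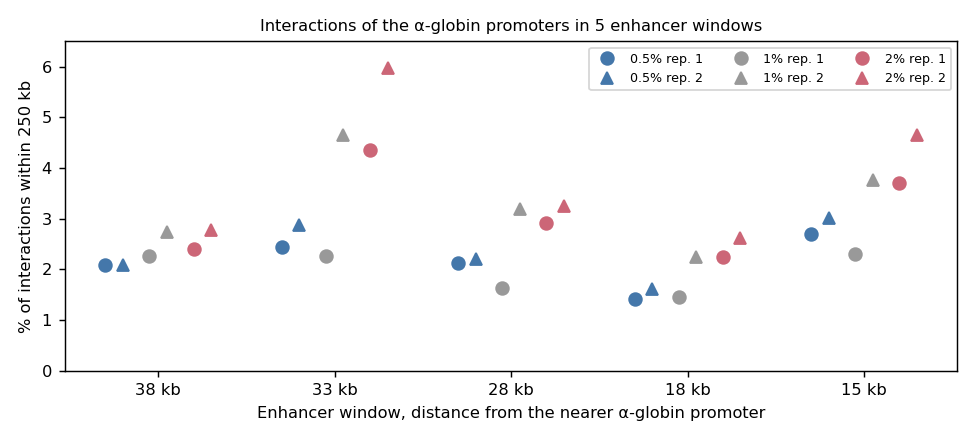
Percent of the interactions within 250 kb of the α-globin promoters (vertical axis) in 5 enhancer windows (horizontal axis, distance in kb), with 1 symbol per library. Every 2% symbol lies above every 0.5% symbol of the same window, and the 33 kb window reaches 4.35% and 5.98% at 2%.

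Within the enhancer side itself, the enhancer windows had more interactions per kb than the chromatin between them at each concentration, by a ratio whose 0.5% and 2% values overlapped. The log2 ratio of interaction density in the 5 windows over the rest of the interval from 12 to 40 kb was 0.55 and 0.43 at 0.5%, 0.39 and 0.52 at 1%, and 0.52 and 0.77 at 2%. The groups overlapped, and the difference of 0.16 gave exact permutation p = 0.667. It was 0.03 without 2% replicate 2, 0.10 without 0.5% replicate 2 and 0.28 without 2% replicate 1. With windows of 1 kb to either side the difference was 0.04 (exact permutation p = 1). A p that misses the threshold in so small a design does not show that the ratios were equal.

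A further measure took windows by their contacts in other libraries in place of enhancer positions. In each pair of 5 kb windows at equal distance on either side, from 10 to 100 kb, the window with more interactions in the LI Capture-C libraries made from 200 ng was called contact-rich. Those libraries are separate from the fixation libraries, and were themselves fixed with 2% formaldehyde. The choice therefore favours windows with more contact at 2%, so a larger ratio at 2% than at 0.5% may be partly built in. All 18 contact-rich windows of α-globin lay on the lower-coordinate side, and 16 of 17 of β-globin and 13 of 18 of Slc25a37 on the higher-coordinate side, so this measure largely restates the side ratios. At α-globin it counted the very same interactions as the ratio of the sides over 10 to 100 kb and adds nothing to it. The log2 ratio of contact-rich over contact-poor windows was 1.51 and 1.82 at 0.5% and 2.27 and 2.78 at 2% at α-globin, 1.31 and 1.63 against 1.93 and 2.22 at β-globin, and 0.09 and 0.49 against 0.70 and 1.31 at Slc25a37. The differences of 0.86, 0.60 and 0.71 came without overlap (exact permutation p = 0.33 each), and that of Slc25a37 was 0.40 without 2% replicate 2.

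Single 5 kb windows within 1 Mb were tested with edgeR's quasi-likelihood test on the 6 libraries, with counts scaled by TMM, a scaling that centres the log ratios of most windows, so that a window that rose here rose relative to the others. With this scaling no α-globin window passed an adjusted p under 0.05 in either direction (0% of 228 tested rose and 0% fell, with 71 at an unadjusted p under 0.05, and 7 by DESeq2). Of the β-globin windows 1.12% of 179 rose and 0% fell, and of the Slc25a37 windows 4.35% of 92 rose and 2.17% fell. The β-globin windows that rose were 1 contact-rich window 80 to 85 kb on the higher-coordinate side (log2 difference 1.25 ± 0.35, SE, edgeR adjusted p = 0.0409) and 1 contact-poor window 10 to 15 kb on the other (1.41 ± 0.37, edgeR adjusted p = 0.0232). Of the 18 contact-rich Slc25a37 windows 3 rose, those 20 to 25, 30 to 35 and 35 to 40 kb on the higher-coordinate side, and 1 fell, 90 to 95 kb on the lower; these were named after their values were seen. For the 6 libraries the median log2 difference of the contact-rich windows was 0.79 at α-globin, 0.81 at β-globin and 0.43 at Slc25a37, against -0.36, 0.10 and -0.08 for the contact-poor windows at the same distances, and -0.18, -0.18 and -0.27 over all tested windows. Scaled instead to all interactions genome-wide, 86, 59 and 39 windows rose and 0 fell, with medians over all tested windows of 0.82, 1.00 and 1.03. Leaving out 0.5% replicate 1, 0.5% replicate 2 or 2% replicate 2 left 0 windows past the threshold at any viewpoint, and leaving out 2% replicate 1 left 0, 4 and 9.

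Without the 1% libraries, edgeR called more windows. Then 13.2% of the α-globin windows, 8.94% of the β-globin windows and 5.43% of the Slc25a37 windows rose, and 8, 3 and 2 windows fell. Among the contact-rich windows 15 of 18 rose at α-globin, 11 of 17 at β-globin and 4 of 18 at Slc25a37, and among the contact-poor windows 2 of 18, 3 of 17 and 0 of 18. Of the contact-rich windows 1 fell, at Slc25a37. The 3 contact-rich Slc25a37 windows with the most interactions in the 200 ng libraries lay 10 to 15, 15 to 20 and 35 to 40 kb on the higher-coordinate side. The one at 35 to 40 kb held 229 and 147 interactions at 0.5%, 275 and 756 at 1% and 1218 and 1224 at 2%, and rose with all 6 libraries (log2 difference 1.18 ± 0.39, edgeR adjusted p = 0.0442) but not without the 1% libraries (edgeR adjusted p = 0.0506). The other 2 had log2 differences of 0.86 ± 0.37 and 0.75 ± 0.38 and did not pass (edgeR adjusted p = 0.122 and 0.208).

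Single DpnII fragments within 250 kb were tested in the same way. At α-globin, 31 of 378 tested fragments rose at 2% and 33 fell (8.2% and 8.73%). At Slc25a37 8 of 223 rose and 16 fell (3.59% and 7.17%). At β-globin none of 403 passed (0% in either direction, 90 at an unadjusted p under 0.05 by edgeR, and 1 past the threshold by DESeq2). In simulated counts the test found 9.52% of 2-fold changes at α-globin, 0% at β-globin and 19.8% at Slc25a37. A fragment that did not pass may therefore still differ. When counts were instead scaled to all interactions genome-wide, 249 α-globin fragments rose and 1 fell, 263 β-globin fragments rose and 0 fell, and 175 Slc25a37 fragments rose and 0 fell, with a median log2 difference of 1.85, 2.01 and 2.01. The split also moved with other scalings: local totals without TMM gave 7 up and 7 down at α-globin and 21 up and 4 down at Slc25a37, and DESeq2 gave 9 up and 7 down at α-globin and 0 up and 4 down at Slc25a37. Without a filter on low counts 18 Slc25a37 fragments rose and 3 fell. Without the 1% libraries 56 α-globin fragments rose and 51 fell, 0 β-globin fragments rose and 1 fell, and 1 Slc25a37 fragment rose and 6 fell. The counts also depended on single libraries: leaving out 0.5% replicate 1, 0.5% replicate 2, 2% replicate 1 or 2% replicate 2 left 1, 0, 12 and 1 α-globin fragments, 0, 7, 29 and 0 Slc25a37 fragments, and 3, 4, 1 and 0 β-globin fragments.

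All 31 α-globin fragments that rose lay on the lower-coordinate side, where 264 of the 378 tested fragments lie. The smallest adjusted p among them belonged to neighbours 7.37 and 7.61 kb from the promoter. The fragment chr11:32176156-32176202 had 9 and 4 interactions at 0.5%, 10 and 69 at 1% and 110 and 167 at 2% (log2 difference 2.22 ± 0.58, edgeR adjusted p = 0.0130). The fragment chr11:32175857-32176030 had 15 and 10, 22 and 80, and 212 and 264 (2.00 ± 0.53, edgeR adjusted p = 0.0130). A further one, chr11:32173393-32173449, had 11 and 2, 10 and 59, and 119 and 138 (2.15 ± 0.58, edgeR adjusted p = 0.0147). In all 3 the counts of the 2% libraries lay far above those of the 0.5% libraries, and the 1% duplicates fell near one group each. Local totals were also higher at 2%. As shares of the local interactions, the ratios of 2% to 0.5% were 4.84, 4.33 and 4.49 in the same order.

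The α-globin fragments that fell relative to the rest lay on either side. The fragment chr11:32249287-32251535, 54.1 kb away on the higher-coordinate side, had 32 and 16 interactions at 0.5%, 19 and 9 at 1% and 13 and 10 at 2%, in libraries whose local totals were higher at 2% (log2 difference -3.28 ± 0.61, edgeR adjusted p = 0.000294). The fragment chr11:32185293-32185902, between the α-globin promoters, had 379 and 256 at 0.5% and 596 and 707 at 2% (-1.25 ± 0.27, edgeR adjusted p = 0.00370), so its count rose while its local share fell. The fragment chr11:32050694-32051798, 132 kb away on the lower-coordinate side, had 20 and 16 at 0.5% and 5 and 14 at 2% (-3.17 ± 0.72, edgeR adjusted p = 0.00438).

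At Slc25a37, 7 of the 8 fragments that rose lay on the higher-coordinate side and 14 of the 16 that fell on the lower, where 123 and 100 of the 223 tested fragments lie, respectively. The fragment chr14:69917870-69917986, 14.7 kb away on the higher side, had 3 and 6 interactions at 0.5%, 7 and 33 at 1% and 91 and 95 at 2% (log2 difference 2.09 ± 0.58, edgeR adjusted p = 0.0106), and chr14:69936843-69936974 had 5 and 5, 9 and 44, and 72 and 97 (1.85 ± 0.56, edgeR adjusted p = 0.0192). The fragment chr14:69947627-69947742 had 1 and 0 at 0.5% and 29 and 25 at 2%; its local share was 14.0 times higher at 2%, with a 95% counting interval of 2.42 to 565. It passed the filter on low counts only through its 2% counts, and so did chr14:69917870-69917986. Both could therefore be tested only because they were high there. Without the 1% libraries chr14:69936843-69936974 and chr14:69947627-69947742 did not pass (edgeR adjusted p = 0.0502 and 0.0516).

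The 3 of the 16 Slc25a37 fragments that fell with the smallest adjusted p were chr14:69882266-69883595 (log2 difference -1.55 ± 0.31, edgeR adjusted p = 0.000139), chr14:69875718-69878005 (-1.45 ± 0.31, edgeR adjusted p = 0.000206) and chr14:69808424-69809614 (-2.83 ± 0.60, edgeR adjusted p = 0.000206). These 3 lie on the lower-coordinate side, at 20.3, 26.4 and 94.3 kb. The first held 54 and 31 interactions at 0.5%, 45 and 54 at 1%, and 93 and 46 at 2%. The raw counts of this fragment at 2% lay on either side of its higher 0.5% count, but local totals differed. They were 6326 and 3537 interactions at 0.5% and 21282 and 16630 at 2%. As a share of the local interactions, the ratio of 2% to 0.5% for this fragment was 0.425, with a counting interval of 0.322 to 0.564.

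The fragments that rose were short and those that fell were long. The α-globin fragments that rose had a median length of 104 bp and those that fell 1216 bp, against 395 bp over all tested fragments, and 28 of the 31 that rose were under 250 bp while 0 of the 33 that fell were, against 117 of all 378. At Slc25a37 the medians were 151.5 bp and 1239.5 bp against 374 bp, with 8 of the 8 that rose and 0 of the 16 that fell under 250 bp, against 74 of all 223. Fragment length was examined after these calls had been seen, so the counts are a description.

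The same order ran through all tested fragments of every viewpoint, β-globin included. At α-globin the median log2 difference between 2% and 0.5% was 1.46 for 36 fragments under 100 bp, 0.70 for 81 from 100 to under 250 bp, 0.10 for 112 from 250 to under 500 bp, -0.65 for 105 from 500 to under 1000 bp, -1.32 for 37 from 1000 to under 2000 bp and -1.47 for 7 of 2000 bp or more. At β-globin it ranged from 1.11 under 100 bp down to -1.24 at 2000 bp or more, and at Slc25a37 from 1.10 down to -1.45. The sign of the long classes holds relative to the local profile only: scaled to all interactions genome-wide, the α-globin medians were 3.26 under 100 bp and 0.38 at 2000 bp or more, the β-globin medians 3.04 and 0.66, and the Slc25a37 medians 3.08 and 0.52, in the same order and all above 0. Only 36 of 198 listed α-globin fragments under 100 bp passed the filter on low counts, which takes a mean of 10 over the 6 libraries, and a short fragment could pass it through its 2% counts alone.

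Shares of all interactions, which use no filter on counts, ran in the same direction in cis. Among α-globin interactions at 10 to 100 kb, fragments under 250 bp held 15.5% and 14.4% at 0.5%, 17.2% and 22.7% at 1% and 25.4% and 29.4% at 2%. At β-globin they held 13.5% and 13.8% at 0.5% and 20.3% and 26.7% at 2%, and at Slc25a37 15.7% and 15.2% against 24.6% and 30.7%. Fragments of 1000 bp or more went the other way, at α-globin from 21.4% and 21.6% to 12.5% and 10.3%. Between 100 kb and 1 Mb the share in fragments under 250 bp was 11.6% ± 1.00 at 0.5% and 23.6% ± 3.31 at 2% at α-globin, 14.4% ± 0.611 and 27.0% ± 5.77 at β-globin, and 14.4% ± 1.99 and 29.8% ± 6.12 at Slc25a37, without overlap (exact permutation p = 0.33 each).

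On other chromosomes the share in short fragments differed in the opposite direction, while that in long fragments did not. Fragments under 250 bp held 45.3% and 47.7% of the α-globin trans interactions at 0.5% and 39.6% and 39.6% at 2%. The means were 44.2% ± 2.65 at 0.5% and 40.5% ± 0.0682 at 2% at β-globin, and 45.3% ± 0.775 and 35.3% ± 1.10 at Slc25a37, again without overlap (exact permutation p = 0.33 each). Fragments of 1000 bp or more held 11.4% ± 0.410 of the α-globin trans interactions at 0.5% and 9.09% ± 1.47 at 2%, lower at 2% as in cis and without overlap. At β-globin they held 11.4% ± 1.13 and 9.66% ± 1.79, and at Slc25a37 12.8% ± 0.451 and 11.9% ± 2.40, with overlapping groups. In unfixed cells, which were also handled differently, 53.6% and 52.3% of the α-globin trans interactions lay in fragments under 250 bp. In every 0.5% and 2% library and at each viewpoint, short fragments held more of the trans than of the 10 to 100 kb interactions.

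**Figure D5:**
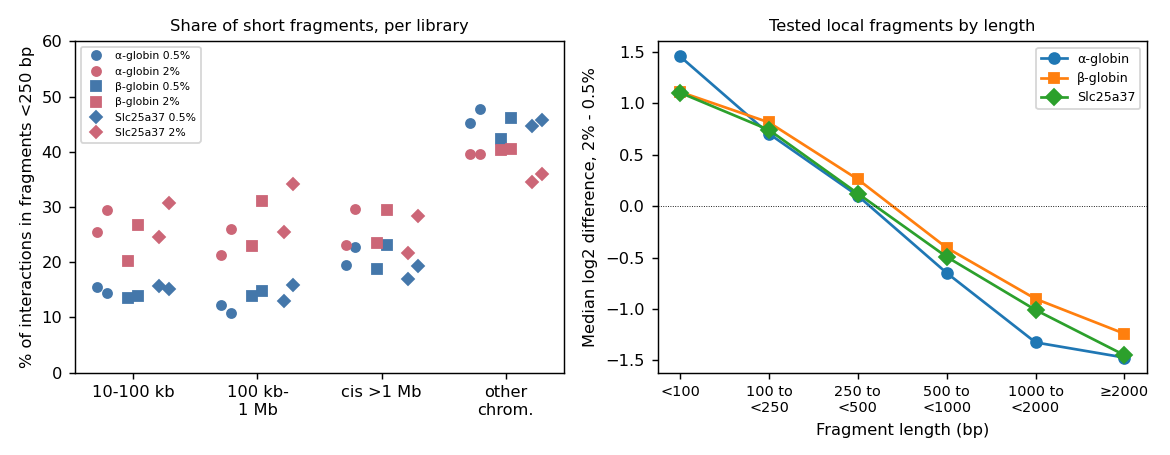
Left, percent of interactions in fragments under 250 bp (vertical axis) by distance class (horizontal axis), with 1 symbol per library, blue at 0.5% and red at 2%; right, median log2 difference between 2% and 0.5% of tested local fragments (vertical axis) by fragment length in bp (horizontal axis). The short-fragment share is higher at 2% than at 0.5% at 10 to 100 kb and lower on other chromosomes, and the median difference is lower the longer the fragments, at α-globin from 1.46 to -1.47.

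The difference in side ratio was as follows within classes of fragment length. At 10 to 100 kb the difference of the α-globin log2 side ratio between 2% and 0.5% was 0.55 in fragments under 250 bp, 0.84 in fragments from 250 to under 1000 bp and 1.18 in fragments of 1000 bp or more. At β-globin it was 0.46, 0.72 and 0.53, and at Slc25a37 0.67, 0.52 and 0.50. The 0.5% and 2% libraries did not overlap in any of these comparisons (exact permutation p = 0.33 each). At Slc25a37 the gap was slight in fragments under 250 bp, with 1.050 in 0.5% replicate 2 and 1.053 in 2% replicate 1. In fragments of 1000 bp or more the same libraries had -0.54 and -0.48.

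Over interaction counts, the local profiles of a 0.5% and a 2% library were less correlated than duplicates of either concentration, but on a log2 scale this was not so for every pair. Over the fragments within 250 kb, r between a 0.5% and a 2% library was 0.846 to 0.892 at α-globin, 0.818 to 0.890 at β-globin and 0.846 to 0.896 at Slc25a37. The duplicates had r = 0.969 at either concentration at α-globin, 0.956 at either at β-globin, and 0.951 at 0.5% and 0.957 at 2% at Slc25a37. On the log2 scale, which gives more weight to fragments with few interactions, 0.5% replicate 1 correlated with 2% replicate 1 at 0.876, 0.866 and 0.814 at the 3 viewpoints in the same order, above the 0.5% duplicates at 0.872, 0.829 and 0.785 and below the 2% duplicates at 0.928, 0.916 and 0.860.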

How the data were processed

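Capture-C libraries were made with DpnII from erythroid cells and captured for promoters of the globin genes and Slc25a37. The submitters' processing notes name Trim Galore, Bowtie and build mm9, with versions not given in the sources used here. The authors deposited counts of unique interactions per DpnII fragment, after removal of PCR duplicates, as 1 table per viewpoint, and these raw counts were used. The members and lists were chosen with earlier results of these data known. Values per library were compared by difference of means and an exact two-sided permutation test. Fragments within 250 kb and 5 kb windows within 1 Mb with a mean count of at least 10 over the 6 libraries at 0.5%, 1% and 2% were tested with edgeR's quasi-likelihood test (TMM, contrast 2% minus 0.5%, Benjamini-Hochberg over all tested features of a viewpoint, threshold 0.05). Fragments longer than 100 kb were left out of distances. Named fragments are the 3 with the smallest adjusted p in each direction; named windows are those of the enhancer sets and, at Slc25a37, the 3 contact-rich windows with most interactions, and the β-globin windows past the threshold were named after their values were seen. The test was checked on simulated counts in which 189 of 378, 200 of 403 and 111 of 223 fragments were changed at 2%. Of 2-fold changes it found 9.52% at α-globin, 0% at β-globin and 19.8% at Slc25a37. Of 4-fold changes it found 89.4%, 80% and 93.7%. Counting intervals cover counting error only. Alternatives were DESeq2, other totals and filters, the replicate number as a block, 4 libraries only, subtraction of the trans density, other distances and widths, and leaving out each library. R 4.3.3, edgeR 4.0.16, DESeq2 1.42.0, Python 3.11.15, scipy 1.17.1 and matplotlib 3.10.9 were used.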

Additional observations from a re-analysis of the deposited data

How the results depend on the processing

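Differences between 2% and 0.5% were taken for 19 results. They cover the cis share, the decay exponent, the share of cis interactions at 10 to 100 kb and the side ratios. The others are the α-globin enhancer windows against their surroundings, the contact-rich windows and the share of short fragments. All 19 kept their direction in all 126 alternatives run, which include leaving out each of the 4 libraries. Leaving out 1 library could not turn the sign where the groups did not overlap. Among the 19 only the α-globin enhancer windows had overlapping groups, so most of these alternatives were no test of direction. Some others repeat the main value, such as α-globin contact-rich windows of 10 kb, at 0.86 in both. With 2 libraries a group none of the results could pass a threshold of 0.05, and a kept sign is not a kept size. The difference in decay exponent was -0.01 at every viewpoint between 100 kb and 1 Mb, with overlapping groups. Without 2% replicate 2 the difference in side ratio was 0.57 in place of 0.93 at α-globin and 0.45 in place of 0.77 at Slc25a37, that of the contact-rich windows 0.40 in place of 0.71 at Slc25a37, and that of the α-globin enhancer windows against their surroundings 0.03 in place of 0.16. The last was 0.10 without 0.5% replicate 2 and 0.28 without 2% replicate 1. The side ratio at 25 to 50 kb and within length classes, and the measures of short fragments, were added after the data had been seen.

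The counts of fragments and windows past the threshold were not stable, and the cause was not tested. In the order α-globin, β-globin, Slc25a37, where the main counts were 64, 0 and 24 fragments and 0, 2 and 6 windows, DESeq2 gave 16, 1 and 4 fragments and 7, 5 and 0 windows. Local totals without TMM gave 14, 1 and 25 fragments and 0, 8 and 1 windows, with the directions at Slc25a37 turned from 8 rises and 16 falls to 21 rises and 4 falls, and genome-wide totals gave 250, 263 and 175 fragments and 86, 59 and 39 windows. Without a count filter there were 71, 17 and 21 fragments and 26, 7 and 8 windows, and with a mean count of at least 30 there were 45, 7 and 0 fragments and 0, 9 and 1 windows. Only the libraries of 0.5% and 2% gave 107, 1 and 7 fragments and 38, 19 and 7 windows; these held all 64 α-globin and 7 of the 24 Slc25a37 fragments. Leaving out 1 library at a time, 0 to 12, 0 to 4 and 0 to 29 fragments and 0 to 0, 0 to 4 and 0 to 9 windows passed, the arm with 1 library left being assumed to vary like the other groups.

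The replicate numbers were not taken as pairs. The difference between replicates 2 and 1 correlated across tested fragments, between concentrations, at 0.07 to 0.59 at α-globin, 0.16 to 0.46 at β-globin and 0.19 to 0.61 at Slc25a37, and 1 of these was under 0.1. With the replicate number as a block, 121, 24 (11 rises and 13 falls) and 54 fragments and 0, 16 and 16 windows passed.

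The mean correlation between 0.5% and 2% profiles was 0.838 at α-globin and 0.764 at Slc25a37 on a log2 scale, against 0.864 and 0.867, and 0.838 at Slc25a37 with each library thinned to the shallowest. On the log2 scale the 0.5% duplicates correlated at 0.872 and 0.785 at these viewpoints and at 0.829 at β-globin, which 1 of the 4 pairs of a 0.5% and a 2% library exceeded at each viewpoint; with thinned counts they correlated at 0.964, 0.954 and 0.945, above all 4 pairs.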
